A study of Mus musculus with 3 samples.

Results

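The MHC class I pathway was examined through 10 genes of 50600 annotated genes, a list taken by name and not by level: B2m, H2-K1, H2-D1, H2-T23, Tap1, Tap2, Tapbp, Erap1, Calr and Nlrc5. Each symbol was matched to its Ensembl identifier in the count tables, and all 10 were found. Total RNA-seq was available for 1 group, mouse primary cells of strain C57BL/6NJ labelled T-helper 1, in 3 libraries from separate biosamples that carry 1 donor identifier. Sex was not collected and age and stage are given as unknown. No treatment or genotype contrast was analysed here. The header of each count table names 0 hours.

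MHC class I molecules display peptides from inside the cell to CD8 T cells and are recognised by receptors of NK cells. A heavy chain pairs with beta 2 microglobulin in the endoplasmic reticulum, where the TAP transporter delivers peptides cut by the proteasome, and tapasin and calreticulin hold the empty molecule until a peptide binds. ERAP1 trims peptides to fit, and NLRC5 is the transactivator that drives class I genes. Nearly all nucleated cells carry class I, lymphocytes among the highest, whereas class II belongs mainly to antigen-presenting cells.

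The sequences below show matches to fixed forms of elements through which interferon and NF-kappaB are known to act on class I genes. They are shown because the classical heavy chains and the light chain led the levels of the 10 genes in these libraries. They come from RefSeq (GRCm38.p6), which held a window for 8 of the 10 genes. The bases upstream of H2-K1 (chr17:34000348-34000583, minus strand) and of B2m (chr2:122147437-122147685, plus strand) are printed 5′ to 3′ and stop before the first annotated exon. Capitals mark matches on either strand to the palindromic kappa B site (11 bases), to the short form TTTCNNTT or the repeated form (10 bases) of the interferon-stimulated response element, to TGACG, the core of the cyclic AMP response element, and to CCAAT.
H2-K1: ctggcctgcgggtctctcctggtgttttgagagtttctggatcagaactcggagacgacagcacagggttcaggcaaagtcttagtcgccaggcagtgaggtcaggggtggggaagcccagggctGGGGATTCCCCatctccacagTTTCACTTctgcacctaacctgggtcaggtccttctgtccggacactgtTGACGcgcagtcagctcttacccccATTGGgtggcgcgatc
B2m: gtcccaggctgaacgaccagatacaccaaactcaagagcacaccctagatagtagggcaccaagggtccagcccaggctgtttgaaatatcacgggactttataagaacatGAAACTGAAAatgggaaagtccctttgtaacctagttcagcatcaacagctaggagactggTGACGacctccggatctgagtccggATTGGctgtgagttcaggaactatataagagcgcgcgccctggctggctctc

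Shorter stretches around the kappa B site and the interferon element set the genes side by side. Here capitals mark those motifs only. From the RefSeq start site the stretches span −125 to −97 (H2-K1), −171 to −143 (H2-D1), −149 to −120 (B2m) and −134 to −105 (H2-T23). The Erap1 stretch spans −14 to 15 and crosses the start site. Those of H2-D1 and H2-T23 lie inside the annotated gene spans given below. The coordinates are chr17:34000430-34000458 (H2-K1, minus strand), chr17:35262923-35262951 (H2-D1, plus strand), chr2:122147538-122147567 (B2m, plus strand), chr17:36032806-36032835 (H2-T23, minus strand) and chr13:74639839-74639868 (Erap1, plus strand).
H2-K1: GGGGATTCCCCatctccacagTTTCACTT
H2-D1: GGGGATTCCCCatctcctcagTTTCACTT
B2m: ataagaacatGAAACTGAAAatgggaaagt
H2-T23: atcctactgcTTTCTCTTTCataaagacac
Erap1: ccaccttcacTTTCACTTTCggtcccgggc

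The windows of H2-K1 and H2-D1 share an identical run of 47 bases that holds the kappa B site. That site, searched on both strands over windows of 300 bases, occurred in 2 of the 8 members with a window and in 0.0305% of 32817 RefSeq windows. The 2 are H2-K1 and H2-D1, which share that run, so they do not count as separate occurrences. Only that exact form was searched, so other forms of a kappa B site, in B2m or elsewhere, were not counted. The repeated form of the interferon element occurred in 3 of 8 members (B2m, H2-T23 and Erap1) and in 3.43% of windows. Its shorter form TTTCNNTT, which the repeated form contains, occurred in 6 of 8 and in 23.9% of windows. TGACG was found in 4 of 8 against 20.8%, and CCAAT in 7 of 8 against 37.4%. H2-K1 and H2-D1 hold their TTTCNNTT, TGACG and CCAAT matches in the same order, so these may not be separate occurrences either. All of the above are matches of letters and do not show binding. The kappa B and interferon motifs were chosen as elements known to act on class I genes, and TGACG and CCAAT were chosen along with them. None of the shares among members is therefore a test of enrichment. Tap2 and Nlrc5 had no entry.

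Levels were computed as TPM, which scale counts by exon length and by the library total of such values, and are given as mean ± SD over the 3 libraries. Total counts ranged from 2510319 to 4305077 per library. Replicate 3 stood apart, with 76.5% of its counts in genes whose exons overlap exons of the other strand, against 63.1% in replicate 1 and 53.8% in replicate 2. The tables were counted with strand setting 1, which assigns a fragment by the strand of its first read, and the orientation of the libraries was not given in the sources used here. Were it the opposite, every level in this text, those of B2m and H2-K1 included, would count fragments from the other strand, and this was not tested. The 10 members took 0.46%, 0.608% and 0.291% of counts in replicates 1, 2 and 3. Replicates here are libraries of 1 group. The chi-square p-values below compare the spread between these libraries with counting error, and become smaller with more counts. The sign-flip p-values ask whether a mean log2 ratio over 3 libraries differs from 0. The spread may be technical, and PCR duplicates were not told apart. All 10 T cell identity genes and all 10 naive T cell genes listed reached 1 TPM in all 3 libraries. Of 10 Th1 markers 3 did (Stat4, Il18r1 and Il12rb2, whose exons share 1519 bases with the other strand), and 5 had at most 3 counts in all. Ifng and Tbx21, the defining cytokine and transcription factor of Th1 cells, had 1, 3 and 0 counts each.

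Every member reached 1 TPM in every library, and B2m, H2-K1 and H2-D1 stood above the loading genes and the non-classical chain H2-T23 in each. The median of the members' mean TPM was 99.8, against 14.0 over the protein-coding genes tested for variation. In mean TPM the order was B2m, H2-K1, H2-D1, Calr, H2-T23, Tapbp, Tap1, Tap2, Nlrc5 and Erap1. This order held in each of the 3 libraries except between Tap2 and Nlrc5. All 10 were highest in replicate 2 and lowest in replicate 3 in TPM, as were 66.7% of all tested genes, 44% of those with exon overlap, 78.1% of those with an opposite-strand gene within 5 kb and 89.3% of the rest. In bulk RNA, fewer cells of a type and less RNA per cell cannot be told apart.

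**Figure D1:**
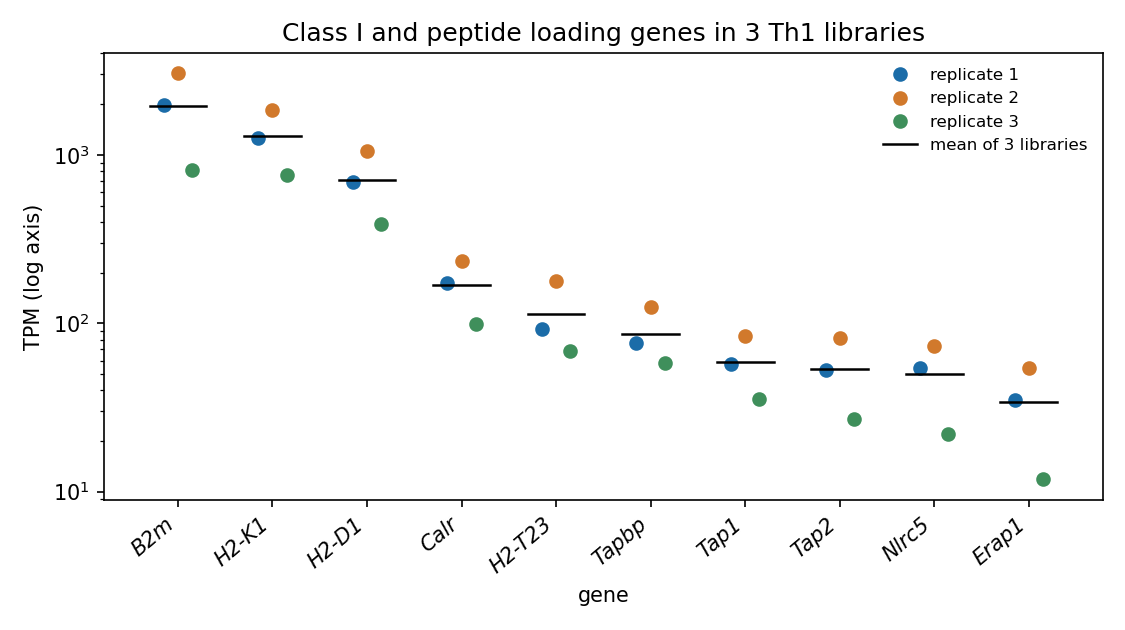
TPM on a log axis for each of the 10 genes, with 1 point per library and a line at the mean of the 3 libraries. B2m, H2-K1 and H2-D1 sit at 388 TPM or more in each library, and the other 7 genes at 236 TPM or less.

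B2m, the light chain shared by class I molecules (ENSMUSG00000060802.8, chromosome 2, 122147686 to 122153083, mm10), had 3205, 5137 and 1049 counts in replicates 1, 2 and 3 over 860 exonic bases. These are 1979.7, 3049 and 816 TPM, with a mean of 1948 ± 1117. It ranked 18th, 14th and 42nd among 21764 protein-coding genes. Its exons share no bases with another gene, and no 50-base word of its transcripts occurred in another gene's transcripts. Patl2 on the other strand spans the gene without sharing exonic bases (here classed as within 5 kb) and had 0, 0 and 5 counts.

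H2-K1 encodes a classical heavy chain (ENSMUSG00000061232.15, chromosome 17, 33996017 to 34000333) and had 6195, 9425 and 2969 counts, the largest number of any member. Its level was 1262, 1844 and 762 TPM (1289 ± 542). H2-D1, the other classical heavy chain of this strain (ENSMUSG00000073411.11, chromosome 17, 35262730 to 35267499), had 3368, 5319 and 1495 counts and stood at 694, 1053 and 388 TPM (711 ± 333). Neither gene has another gene on the opposite strand within 5 kb, and they are the 2 members of which this holds. H2-K1 exceeded H2-D1 in all 3 libraries, by ratios of 1.82, 1.75 and 1.96 (mean log2 ratio 0.88 ± 0.08). An exact sign-flip test over the libraries gave p = 0.25, the smallest that 3 libraries allow.

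The classical heavy chains share sequence with each other and with other genes, so fragments that fit more than 1 gene may have been left out of the counts. Of the distinct 50-base words in H2-K1 transcripts, 9.63% also occurred in transcripts of another gene, and of those in H2-D1 transcripts 12.8%. Between the 2 chains themselves, 4.08% of the H2-K1 words occurred in H2-D1 and 5.44% of the H2-D1 words in H2-K1. With 100-base words the shares with any other gene were 0.957% and 3.59%, and those between the 2 chains were 0. The read length was not given in the sources used here. Uniqueness was therefore higher in H2-K1 at both word lengths, and how much of the ratio between the genes this accounts for was not tested.

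H2-T23 encodes the heavy chain of Qa-1, which presents leader peptides of other class I chains to NK receptors (ENSMUSG00000067212.8, chromosome 17, 36029773 to 36032855). It had 503, 1008 and 295 counts, or 92.5, 178 and 68.3 TPM (113 ± 57.7). The summed classical chains exceeded it by ratios of 21.1, 16.3 and 16.8 (mean log2 ratio 4.16 ± 0.21). On the other strand A930015D03Rik spans the gene without sharing exonic bases and had 729, 708 and 885 counts.

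Scaled by length, light and classical heavy chains were close to level. The ratio of B2m to H2-K1 plus H2-D1 was 1.01 in replicate 1, 1.05 in replicate 2 and 0.71 in replicate 3. The mean log2 ratio was −0.13 ± 0.31, and its sign differed between libraries (exact sign-flip p = 1). Without replicate 3 the mean was 0.046, and with exon lengths reduced by 200 bases, which raises a short gene such as B2m, it was 0.13. From counts without length it was −1.73, with B2m lower in all 3 libraries. The exact 95% interval of the ratio of summed counts per base ran from 0.962 to 1.01, counting error only.

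The classical heavy chains kept steadier shares than levels, in part by construction. A factor common to a whole library cancels in a share, and these chains make up most of the sum. Across 18 heavy chain genes of the H2 region, H2-K1 made up 46.6%, 45.6% and 44.9% of the summed TPM in replicates 1, 2 and 3 (45.7 ± 0.847%). H2-D1 made up 25.6%, 26.0% and 22.9% (24.8 ± 1.72%). H2-Q4, a non-classical chain, followed at 12.7%, 12.2% and 16.6% (13.9 ± 2.42%). Its exons share 496 bases with the other strand, and 36.4% of its 50-base words occur in other genes. H2-T23 held 3.95 ± 0.499% and H2-Q7 3.26 ± 0.408%, and the order of these neighbours was not the same in all libraries. Not every share was steadier than its level, since H2-T24 held 2.96 ± 0.881% at 76.9 ± 11.9 TPM. The summed heavy chains stood at 2818 ± 1178 TPM, and B2m was 0.731, 0.754 and 0.481 of that sum.

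**Figure D2:**
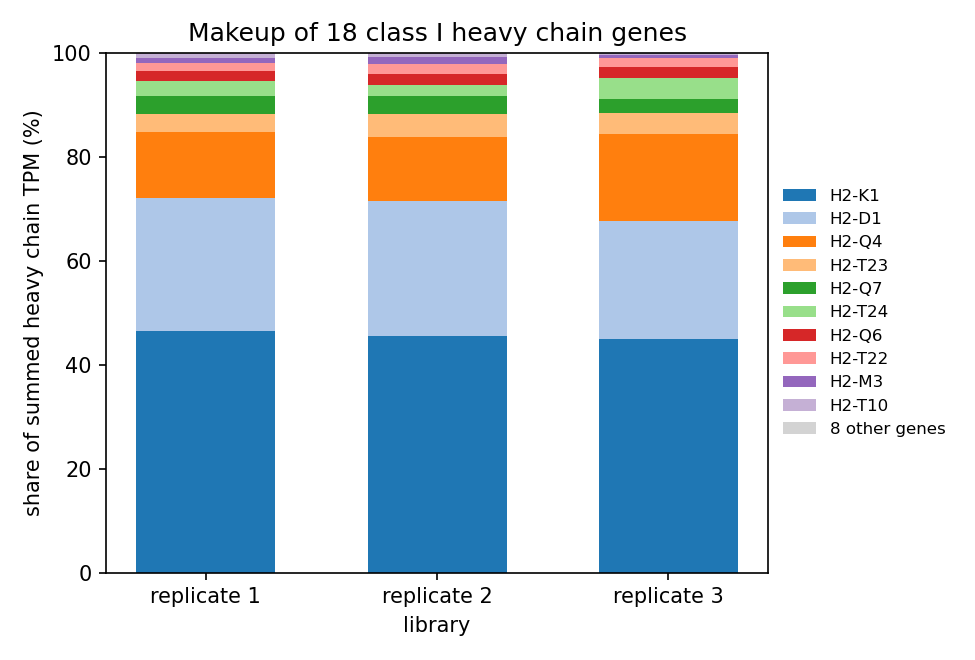
Stacked bars of the share, in percent, that each heavy chain gene took of the summed TPM of 18 heavy chain genes, 1 bar per library. H2-K1 and H2-D1 together took 72.2%, 71.6% and 67.7% in replicates 1, 2 and 3, and the 8 genes grouped as others are too low to see.

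Of the 20 other class I and class I-like heavy chain genes listed, 10 reached 1 TPM in all libraries and 7 had at most 3 counts in all. H2-Q4 led at 374 ± 110 TPM, followed by H2-Q7 at 94.3 ± 46.2, H2-T24 at 76.9 ± 11.9 and H2-Q6 at 57.0 ± 21.2 TPM. H2-Q1, H2-M2, H2-M9 and H2-M10.1 had 0 counts in all 3 libraries. H2-T22 (52.1 ± 28.8 TPM) and H2-T10 (20.5 ± 12.7 TPM), non-classical chains that do not need peptide, share 31.2% and 31.7% of their 50-base words with each other. With any other gene they share 53.5% and 50.4% of these words, and 1003 and 925 of their exonic bases overlap the other strand. Their levels are uncertain for these reasons.

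The peptide transporter genes came next in the pathway. Tap1, a subunit of the transporter (ENSMUSG00000037321.17, chromosome 17, 34187553 to 34197225), had 593, 899 and 292 counts, or 57.5, 83.8 and 35.7 TPM (59.0 ± 24.1). Tap2, its partner (ENSMUSG00000024339.12, chromosome 17, 34203527 to 34216321), had 377, 604 and 153 counts, or 53.0, 81.5 and 27.1 TPM (53.9 ± 27.2). The subunits form a complex of 1 each, and their levels were close, with ratios of Tap1 to Tap2 of 1.09, 1.03 and 1.32. The mean log2 ratio of 0.19 was no larger than its SD of 0.19, although Tap1 was the higher in all 3 libraries (exact sign-flip p = 0.25).

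Both transporter genes lie against genes of the other strand. Tap1 shares 212 exonic bases with Psmb9, an immunoproteasome subunit gene that starts beside it and runs the other way. Tap2 shares 165 exonic bases with the antisense gene Gm20496 and 533 with Gm15821. Exons of Gm20496 also overlap those of Psmb8, which lies between Tap1 and Tap2 and shares 186 exonic bases with the other strand. Gm20496 had 7218, 6881 and 8094 counts over 663 bases, which per base was 109, 65.0 and 302 times the value of Tap2 in replicates 1, 2 and 3. For Gm15821, with 5396, 5194 and 5514 counts, the ratio per base was 44.7, 26.9 and 113. All of these counts rest on strand setting 1. Were the orientation of the libraries the opposite, they would come from the other strand, and this was not tested. Scaled by TMM factors, Gm20496 was higher in replicate 3 than in replicate 2 by a log2 difference of 1.78 and Gm15821 by 1.63, while Tap2 differed by −0.43.

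**Figure D3:**
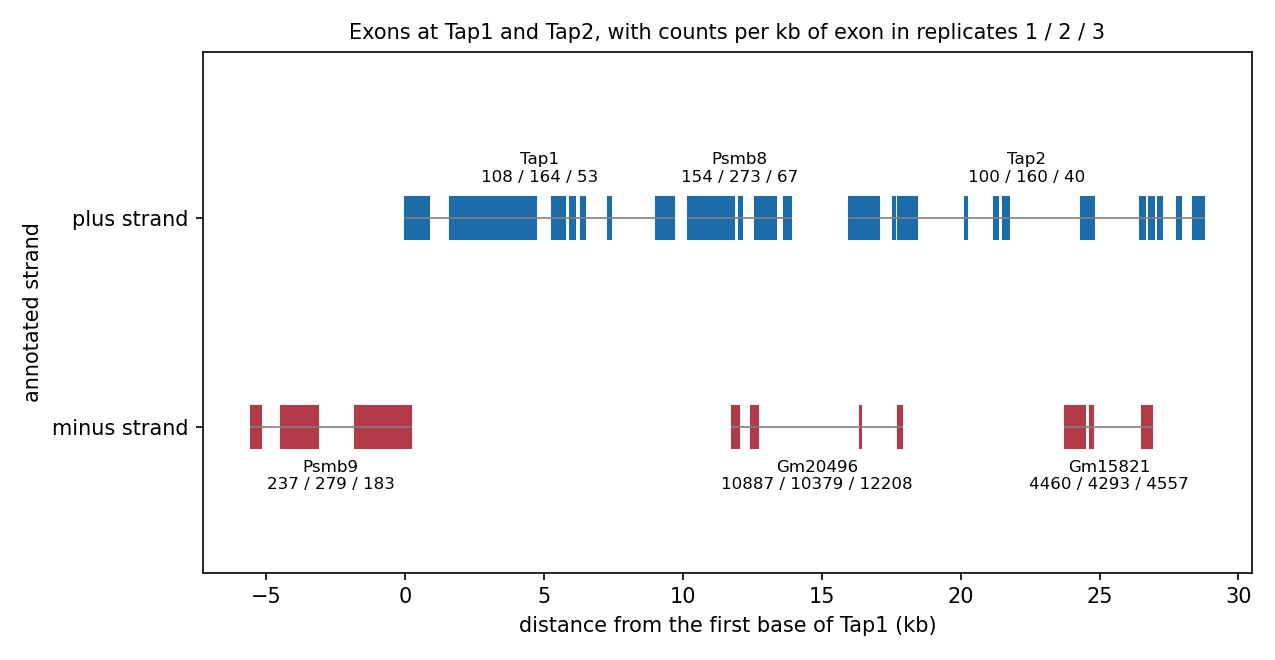
Annotated exons by strand at the Tap1 and Tap2 locus, plotted as distance in kb from the first base of Tap1, with each gene's counts per kb of exon in replicates 1, 2 and 3 printed beside it. Tap1, Psmb8 and Tap2 on the plus strand hold at most 273 counts per kb, whereas Gm20496 on the minus strand holds at least 10379. Counts were assigned with strand setting 1, and the orientation of the libraries was not given in the sources used here.

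Tapasin and calreticulin, which keep empty class I molecules stable, were more abundant per length than the transporter. Tapbp, the tapasin gene (ENSMUSG00000024308.14, chromosome 17, 33915899 to 33929288), had 473, 811 and 286 counts, or 76.2, 126 and 58.1 TPM (86.6 ± 34.9). It exceeded Tap1 in each library by a mean log2 ratio of 0.56 ± 0.15. Of the 864 bases of the antisense gene Gm19412, 665 lie in Tapbp exons, and that gene had 1951, 2021 and 1842 counts, per base 15.7, 9.51 and 24.6 times those of Tapbp. These ratios too depend on the orientation of the libraries, which was not tested. Tapbp also shares 61 exonic bases on its own strand with Zbtb22.

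Tapbpl, which encodes the related peptide editor TAPBPR, stood at 150, 156 and 156 TPM (154 ± 3.49) and did not show the low value in replicate 3. Tapbp was below Tapbpl in all 3 libraries, with ratios of 0.507, 0.803 and 0.371 (mean log2 ratio −0.91 ± 0.56, exact sign-flip p = 0.25). Tapbpl lies within 5 kb of a gene on the other strand.

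Calr, the lectin chaperone calreticulin (ENSMUSG00000003814.8, chromosome 8, 84841850 to 84846934), had 937, 1330 and 428 counts, or 173, 236 and 99.4 TPM (169 ± 68.2). It was the highest member after the light and classical heavy chains. It exceeded Canx, the membrane-bound chaperone calnexin (48.8 ± 24.9 TPM), by ratios of 3.38, 3.25 and 4.34 (mean log2 ratio 1.86 ± 0.23). Calr shares no exonic bases with another gene.

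Erap1, the aminopeptidase that trims peptides in the endoplasmic reticulum (ENSMUSG00000021583.6, chromosome 13, 74639872 to 74691875), was the lowest member, with 266, 429 and 71 counts, or 35.2, 54.5 and 11.8 TPM (33.9 ± 21.4). Its ratio to Lnpep, a related aminopeptidase of endosomes (33.5 ± 21.6 TPM), was 0.928, 1.04 and 1.17. The mean log2 ratio of 0.059 ± 0.17 was within the spread between libraries (exact sign-flip p = 0.75). It was −0.026 without replicate 3 and −0.31 from counts without length. In the later annotation used for names, 10.7% of the 50-base words of Erap1 transcripts also belong to Cast, its neighbour on the other strand.

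Nlrc5 (ENSMUSG00000074151.13, chromosome 8, 94434356 to 94527272) had 873, 1221 and 278 counts over 8493 exonic bases, or 54.6, 73.4 and 21.9 TPM (49.96 ± 26.05). It shares 78 exonic bases with the noncoding gene 9330175E14Rik, which had 378, 291 and 324 counts. Ciita, the transactivator of class II and a relative of Nlrc5, had 31, 38 and 20 counts. Nlrc5 exceeded Ciita by ratios of 16.9, 19.4 and 8.31 (mean log2 ratio 3.80 ± 0.66). Ciita also has exon overlap, of 111 bases.

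Class II chains themselves were close to absent. H2-Aa and H2-Ab1 together had 3, 2 and 0 counts, against 9563, 14744 and 4464 for H2-K1 plus H2-D1. From the summed counts the ratio per base was 3895, with an exact 95% interval of 1669 to 11996, counting error only. H2-Eb1, a class II chain left out of that ratio, had 8, 0 and 1 counts. Of the 12 class II genes listed, 7 reached 1 TPM in all libraries, led by Ctss, a cathepsin, at 117 ± 67.5 TPM and Ifi30, a thiol reductase, at 54.9 ± 11.5 TPM (with exon overlap), followed by H2-Ob at 17.7 ± 10.5 and H2-DMa at 9.63 ± 7.13 TPM. Of 10 B cell markers 2 (Ighm and Cd79a) reached 1 TPM in all libraries and 8 had at most 3 counts in all, and the list summed to between 123.05 and 401 TPM. Pax5, Ms4a1, Igkc, Blk and Ebf1 were at 0. Of 10 myeloid and dendritic markers 2 (Csf1r and Tyrobp) reached 1 TPM in all libraries. The list summed to between 79.8 and 115 TPM, and Adgre1, Cd14 and Fcer1g were at 0. Csf1r alone stood at 81.1 ± 14.5 TPM, and 871 of its exonic bases overlap the other strand. Of 10 CD8 T and NK cell markers 3 (Prf1, Cd8b1 and Klrd1) reached 1 TPM in all libraries. The list summed to between 16.2 and 48.1 TPM, and Klrb1c, Klra8 and Gzmk were at 0. The part of such cells in the class I levels was not tested.

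**Figure D4:**
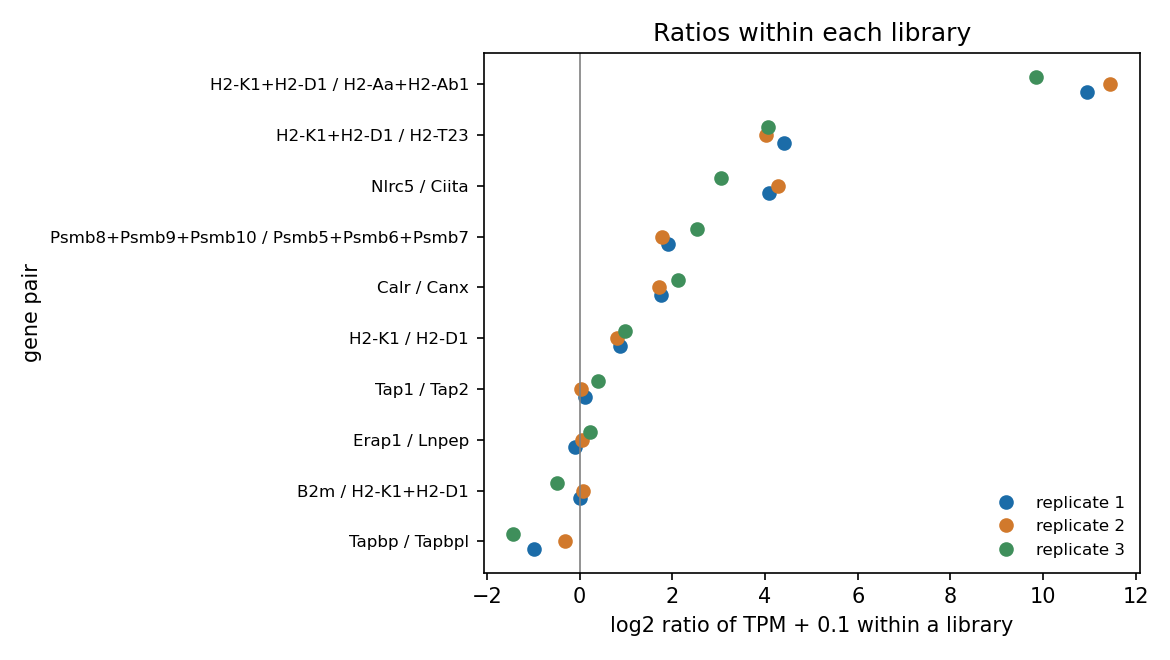
Log2 ratio of TPM + 0.1 within each library for 10 gene pairs, 1 point per library, with plus signs marking summed genes and a grey line at equality. The first gene was higher in all 3 libraries in 7 pairs, the second in 1 pair, and in 2 pairs the libraries fell on both sides of the line.

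Over the 10 pairs the smallest adjusted p was 0.312 (exact sign-flip test, Benjamini-Hochberg), since 3 libraries cannot reach a lower p than 0.25. The direction of 7 pairs with the first gene higher rests on its repetition in 3 libraries. In the class II pair, libraries with fewer than 3 counts were set at 3 counts for the direction.

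The genes that supply and carry peptide were present throughout. All 18 other loading and folding genes of the endoplasmic reticulum reached 1 TPM in all libraries, with a median of 30.8 TPM, led by Tapbpl, the chaperone Hsp90b1 (129 ± 34.6 TPM, with exon overlap), the disulfide isomerase Pdia3 (109 ± 59.2 TPM, with exon overlap) and the chaperone Hspa5 (80.7 ± 30.1 TPM). Of 14 peptide supply genes 13 did, led by the proteasome activator genes Psme1 (191 ± 55.5 TPM, with exon overlap) and Psme2 (105 ± 50.9 TPM) and by Psmb9 (130 ± 10.4 TPM) and Psmb8 (88.6 ± 47.9 TPM). The immunoproteasome genes Psmb8, Psmb9 and Psmb10 summed to 3.77, 3.42 and 5.79 times their constitutive counterparts Psmb5, Psmb6 and Psmb7 (mean log2 ratio 2.07 ± 0.40). Psmb8 and Psmb9 both have exon overlap, whose part in that ratio was not tested.

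All 16 regulators of class I transcription listed reached 1 TPM in all libraries. Rfxank, a subunit of the RFX complex that binds the X box, led at 171, 181 and 219 TPM (190 ± 25.2), and 1341 of its exonic bases overlap the other strand. Irf1, an interferon response factor, followed at 87.3 ± 35.7 TPM (with exon overlap), the NF-kappaB subunit gene Rela at 35.2 ± 13.8 and Irf9 at 27.9 ± 14.8 TPM. Nlrc5 lay between Irf1 and Rela.

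Variation between libraries was then compared with counting error, using counts scaled by TMM factors, which align the bulk of genes between libraries. By a Poisson chi-square test with Benjamini-Hochberg adjustment over 10662 genes, 8 of the 10 members varied beyond counting error, against 62.4% of all tested genes. By position, 3 of the 4 members with exon overlap were called (74.7% of tested genes of that class), 3 of the 4 with an opposite-strand gene within 5 kb (54.3%) and both without one (52.7%). Of the 8, 7 were lower in replicate 3 than in replicate 2, a call that 29.2% of all tested genes met. That share was not split by class. The median log2 difference of tested genes was 1.02 with exon overlap, −0.27 within 5 kb and −0.44 for the rest. The adjusted p was 8.2e-52 for B2m, 3.7e-06 for H2-K1, 3.6e-12 for H2-D1 and 3.8e-09 for H2-T23. It was 0.0047 for Tap2, 0.0026 for Tapbp, 1.9e-07 for Erap1 and 2.4e-09 for Nlrc5. Tap1 and Calr did not pass (adjusted p = 0.450 and 0.571). Without replicate 3 the members called fell to 5 and all genes called from 6649 to 3303. B2m was the member that stayed called under each of the 7 other settings and left-out libraries tried.

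Replicates 2 and 3 were compared first. On the TMM scale Erap1 was lower in replicate 3 than in replicate 2 by a log2 difference of −1.04, B2m by −0.75, Nlrc5 by −0.59 and Tap2 by −0.43. These 4 signs held under DESeq2 size factors, under total counts and under factors from genes without exon overlap. The other 6 members lay between −0.28 and 0.044, and their sign depended on the scaling. The median over all tested genes was −0.092, over those distant from any opposite-strand gene −0.44, and over those with exon overlap 1.02. Factors from genes without exon overlap moved each of these differences by 0.32, DESeq2 size factors by 0.10 and total counts by −0.77. Between replicates 1 and 2 the largest member difference was 0.50, for H2-T23, higher in replicate 2. Relative to the median of all tested genes, replicate 3 against replicate 2, Erap1 lay at −0.95, B2m at −0.65, Nlrc5 at −0.49 and Tap2 at −0.34, whereas H2-K1 lay at −0.028. Members without exon overlap were also set against the median of their own class. H2-K1 then lay at 0.32, Calr at 0.18, H2-D1 at 0.16 and H2-T23 at 0.047, with B2m at −0.47 and Erap1 at −0.77.

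The called shares of the other pathway lists lay near the 62.4% of all tested genes, so nothing is read from them about the pathway. By the same chi-square test 11 of the 17 tested loading and folding genes were called, 9 of them lower and 2 higher in replicate 3 than in replicate 2, where 29.2% of all tested genes were called lower. Among peptide supply genes 9 of 13 were called, 7 lower and 2 higher. Among the regulators 11 of 16 were called, 8 lower and 3 higher, and among the other heavy chains 7 of 10, with 5 lower and 2 higher. Tapbpl, Psmb9 and Rfxank were among those higher in replicate 3, by log2 differences of 1.16, 0.94 and 1.43. The median TPM was 35.4 for the peptide supply genes and 17.7 for the regulators, against 16.5 over all tested genes.

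**Figure D5:**
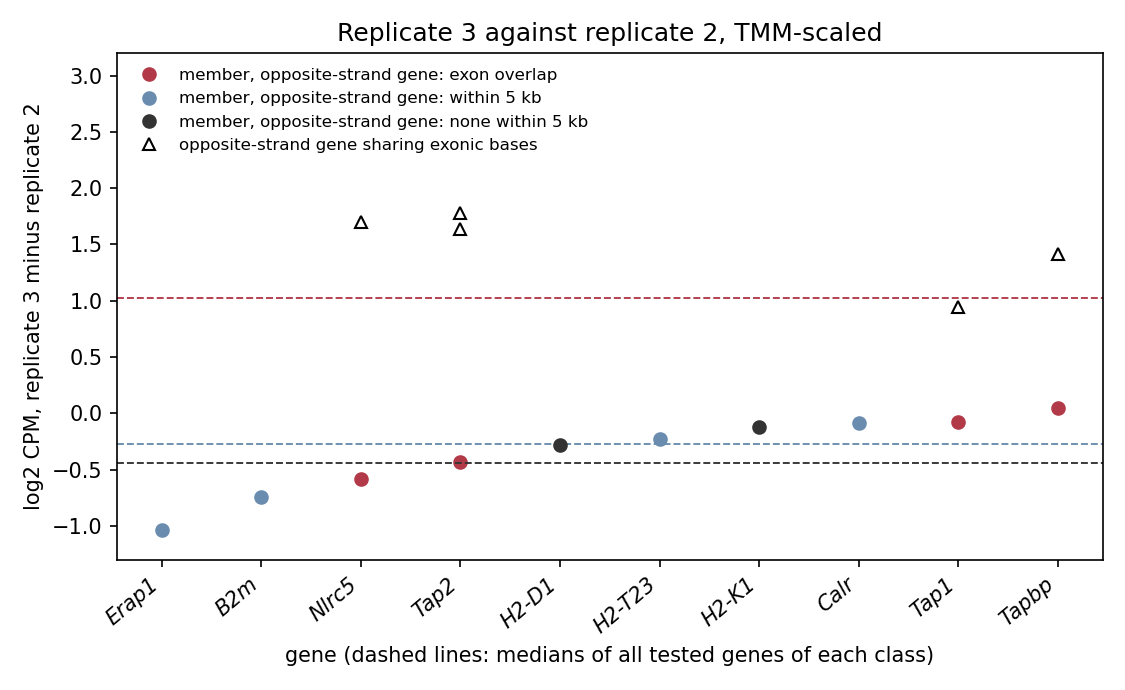
Log2 difference in TMM-scaled CPM between replicate 3 and replicate 2 for the 10 members (filled points, coloured by the distance to an opposite-strand gene) and for opposite-strand genes that share exonic bases with a member (triangles). Dashed lines are medians of all tested genes of each class. Members range from −1.04 (Erap1) to 0.044 (Tapbp), and the triangles lie between 0.94 and 1.78.

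The 4 members with exon overlap did not follow the median of their class. Relative to the class median of 1.02, Tap1 lay at −1.10, Tap2 at −1.45, Tapbp at −0.98 and Nlrc5 at −1.61. Their opposite-strand partners lay near or above that median, at 0.94 for Psmb9, 1.78 for Gm20496, 1.63 for Gm15821, 1.41 for Gm19412 and 1.7 for 9330175E14Rik.

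The spread of the members depended on the denominator. The coefficient of variation of the members' TPM ran from 40.3% to 63.2%, with a median of 48.7% (43.9% over all tested genes). When the same scaling used only the length-scaled counts of genes without exon overlap as its total, it ran from 5.93% for Calr to 36.5% for Erap1, with a median of 15.4%. On that scale H2-K1 stood at 4515, 5090 and 4424 (4676 ± 361) and Tap1 at 206, 231 and 207 (215 ± 14.3). B2m stood at 7084, 8412 and 4741, and Erap1 at 126, 151 and 68.7. Replicate 3 was thus the low library for B2m and Erap1 on both scales, and for Tap1 and H2-K1 the 3 libraries came close together.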

How the data were processed

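Total RNA-seq of 1 group of 3 libraries was used. The authors deposited raw counts of fragments per gene, made with featureCounts 1.4.6-p4 on the GENCODE M13 annotation, with both ends mapped and strand setting 1, per the file headers. The headers name STAR and no option for multi-mapping fragments. Per the labels the build is mm10. Read length, the kit and the version of STAR: not given in the sources used here. Summed exon length was taken from the same deposited tables. Symbols came from GENCODE M21 by gene identifier (50376 of 50600 named), and 1 listed gene was found by an older symbol.

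TPM were computed from counts and exon length. Genes were classed by opposite-strand exon overlap or a gene within 5 kb. TMM sizes and filterByExpr came from edgeR 4.0.16, and other size factors from DESeq2 1.42.0. Variation between libraries beyond counting error was tested per gene by chi-square under a Poisson model and called at an adjusted p of 0.05. The step was run on counts simulated under the same Poisson model, which cannot show how the test behaves on these libraries. Log2 CPM used an offset of 0.5 counts, and pair ratios a pseudocount of 0.1 TPM with an exact two-sided sign-flip test. All 10 members are named, and of each other pathway list the 4 highest and those at 0 counts. Of the cell type markers only some are named. The members and lists were chosen with earlier results of these data known.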

Additional observations from a re-analysis of the deposited data

How the results depend on the processing

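The median member level was 99.8 TPM. It was 239 with protein-coding genes without mitochondrial genes as denominator, 363 with genes without exon overlap, and 48.7 as TMM-scaled CPM per kilobase, each by construction of the scale, and between 73.8 and 118 with a replicate left out. The number of members varying beyond counting error was 8, and between 5 and 6 with a replicate left out; for all genes it was 6649, and between 3303 and 6377. It was 6 with DESeq2 size factors, 7 with factors from genes without exon overlap and 10 with total counts, and the calls over all genes moved the same way, to 58.1%, 53.6% and 82.5% of tested genes from 62.4%. Ratios of 2 pairs near equality changed sign, that of B2m to the classical heavy chains (mean log2 ratio 0.13 with shorter lengths, and between −0.24 and 0.046 with a replicate left out, the latter without replicate 3) and that of Erap1 to Lnpep (−0.31 without length, and between −0.026, without replicate 3, and 0.14 with a replicate left out); the cause was not tested. The first gene was higher in 7 pairs, and in 7 to 8 pairs under the other settings and left-out replicates. No paired analysis was possible because the series holds 1 group. Dispersions from edgeR, with a median of 35.3% as biological coefficient of variation for the members and 33.0% for all tested genes, carry no test.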

Other observations

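Some pathway genes did not show the fall in replicate 3 that the class I chains showed in TPM. Chosen after their values were seen, Tapbpl (150, 156 and 156 TPM), Psmb9 (126, 142 and 122.7 TPM) and Rfxank (171, 181 and 219 TPM) stayed within narrow ranges while B2m ranged from 816 to 3049 TPM. Their log2 differences between replicates 3 and 2 on the TMM scale were 1.16, 0.94 and 1.43, against −0.75 for B2m. Psmb9 and Rfxank have exon overlap with the other strand, and Tapbpl has an opposite-strand gene within 5 kb. Among heavy chains H2-T24 (73.8, 90.1 and 66.9 TPM) and H2-Q4 (344, 495 and 283 TPM) gained in share in replicate 3, from 2.23% to 3.94% and from 12.2% to 16.6% of the summed heavy chains relative to replicate 2.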
